A study of Mus musculus with 14 samples.

Results

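Transcripts that belong to hepatocytes and to lung epithelium were followed through RNA sequencing libraries of sorted CD4+ T cells. The genes were the entries of the deposited count file with the symbols Alb, Apoa1, Apoa2, Ahsg, Scgb1a1, Sftpc and Ager, which are 7 of 25017 entries. They were picked by name as markers of the cells around the T cells in liver and lung. All 7 were found in the file, and all 7 passed the filter on low counts. Alb, Apoa1, Apoa2 and Ahsg passed it only through the liver libraries, and Scgb1a1 and Sftpc only through the lung libraries.

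The study examined chronic graft-versus-host disease (cGVHD), in which donor T cells injure the tissues of a transplant recipient. All recipients were BALB/c mice that had received T-cell-depleted bone marrow of C57BL/6 (B6) donors. Animals with cGVHD had also been given B6 splenocytes, and GVHD-free animals had not. Donor-derived CD4+ T cells were sorted at day 30 into a PSGL1lo and a PSGL1hi fraction by PSGL1, a ligand of selectins on the T cell surface. There were 7 groups of 2 libraries each. They were PSGL1lo and PSGL1hi cells from cGVHD liver, PSGL1lo and PSGL1hi cells from cGVHD lung, PSGL1lo and PSGL1hi cells from cGVHD spleen, and PSGL1lo cells from GVHD-free spleen. The labels state neither how many animals went into a library nor whether the replicates of a group were different animals. Each p-value therefore measures the spread between libraries, and that spread may be technical. The files count reads per gene and not per allele, so transcripts of donor and recipient origin cannot be told apart.

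The 14 libraries held 13222005 to 33532595 counts, and the summed counts of the 7 genes were 4.68e-05% to 0.00812% of a library. Levels are given as counts and as CPM, the count scaled to the TMM-adjusted library size. The floor was 3 counts, since 0 counts allow a level of up to that, which came to 0.0859 to 0.223 CPM and covers counting error only. The labels number the spleen libraries in one series and the liver and lung libraries in another. Tissue and library series therefore cannot be told apart wherever spleen is compared with liver or lung, whereas lung and liver, and the fractions within a tissue, share a series. Among the liver and lung libraries, the sample name of liver PSGL1lo replicate 1 ends in S18, and the other names end in S44 to S50. What that ending stands for is not stated in the sources used here. Liver PSGL1lo replicate 1 also held the most counts. The CD4 T cell list (8 of 9 symbols in the file) summed to 5389 to 9100 CPM in every library. Cd4 averaged 2560 ± 14.7 CPM in liver PSGL1lo cells and 2621 ± 90.6 CPM in liver PSGL1hi cells (SD, n = 2 each).

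Hepatocytes make most plasma proteins. Alb encodes albumin, the main carrier protein of plasma, Apoa1 and Apoa2 encode the major apolipoproteins of high-density lipoprotein, and Ahsg encodes fetuin-A, a secreted glycoprotein that binds calcium phosphate. In the lung, Scgb1a1 encodes the secretoglobin of airway club cells, Sftpc encodes surfactant protein C of alveolar type 2 cells, and Ager encodes the receptor for advanced glycation end products, which is abundant on alveolar type 1 cells and is also made by immune cells.

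Promoter windows are shown for the 3 genes that were called together in liver, since transcription of plasma protein genes in hepatocytes rests on factors that bind close to the start site. The windows come from RefSeq on GRCm38.p6 and run 250 bases before to 50 bases after the annotated start. Of the 7 genes, 5 had a window, and none was at hand for Scgb1a1 and Sftpc. The Alb window lies at chr5:90460620-90460919, the Apoa1 window at chr9:46228380-46228679 and the Ahsg window at chr16:22891765-22892064, all on the plus strand. Capitals mark the letters GTTAAT, one arm of the palindrome bound by the hepatocyte factor HNF1.
Alb: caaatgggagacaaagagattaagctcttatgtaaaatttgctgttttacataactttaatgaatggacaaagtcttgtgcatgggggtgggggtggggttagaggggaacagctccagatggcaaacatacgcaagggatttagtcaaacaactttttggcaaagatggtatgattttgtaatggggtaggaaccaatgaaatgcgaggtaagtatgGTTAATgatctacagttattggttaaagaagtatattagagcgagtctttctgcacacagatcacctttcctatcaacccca
Apoa1: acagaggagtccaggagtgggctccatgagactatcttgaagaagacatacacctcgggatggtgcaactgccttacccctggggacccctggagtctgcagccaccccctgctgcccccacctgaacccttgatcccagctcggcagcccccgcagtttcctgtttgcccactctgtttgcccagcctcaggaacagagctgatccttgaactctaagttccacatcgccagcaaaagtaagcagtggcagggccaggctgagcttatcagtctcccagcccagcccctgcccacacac
Ahsg: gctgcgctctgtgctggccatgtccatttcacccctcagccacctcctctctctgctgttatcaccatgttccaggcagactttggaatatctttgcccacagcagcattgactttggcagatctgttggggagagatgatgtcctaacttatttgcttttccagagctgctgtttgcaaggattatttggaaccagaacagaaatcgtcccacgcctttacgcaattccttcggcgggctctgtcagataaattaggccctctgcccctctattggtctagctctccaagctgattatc
Both strands were searched for the TATA box TATAAA, for GTTAAT, for AAAGTCC as a motif of the factor HNF4, for TGTTTAC as a motif of forkhead factors, and for CAAGTG as a motif of NKX2 factors. The Alb window held GTTAAT once, on the plus strand and starting 32 bases upstream of the start, with no overlap with another motif. That motif occurred in 7.1% of the 32851 promoter windows in the table, and 13 of the 29 genes with a window on a wider hepatocyte list had it. The Apoa1 and Ahsg windows held none of the 5 motifs, which says only that these letters are not there. Apoa2 has 2 annotated starts. One of its windows held the letters TATAAA once, 212 bases upstream of the start, and the forkhead motif once, 77 bases upstream. The other window held the HNF4 motif once, on the minus strand and 169 bases upstream. These 3 motifs occurred in 13.6%, 3.65% and 4.21% of all windows. The Ager window held none.

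Hepatocyte transcripts were found in liver sorts and at or near the floor elsewhere. Alb had 1355 and 755 counts in the cGVHD liver PSGL1lo libraries, against 362 and 361 in the liver PSGL1hi libraries. The 10 libraries from lung and spleen held 0 to 3 Alb counts each. All 4 liver libraries lay above every other library, and the fractions did not overlap within liver. Albumin RNA averaged 35.3 ± 4.95 CPM in liver PSGL1lo cells and 14.7 ± 2.25 CPM in liver PSGL1hi cells (SD, n = 2 each).

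Ahsg had 170 and 74 counts in liver PSGL1lo libraries, against 26 and 35 in liver PSGL1hi libraries. It had 0 counts in 9 of the 10 other libraries and 1 count in the other. Apoa1 had 136 and 84 counts in liver PSGL1lo libraries, against 38 and 27 in liver PSGL1hi libraries. In spleen it had 3 and 5 counts in cGVHD PSGL1lo, 0 and 1 in cGVHD PSGL1hi, and 0 and 1 in GVHD-free PSGL1lo libraries, and in lung it had none. For both genes the fractions did not overlap in liver. Ahsg overlaps Gm30505, an antisense gene that is also in the count file, and the sources used here do not state whether counting used strand, so Ahsg counts are uncertain.

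Apoa2 was the exception among the hepatocyte genes, with a few counts in every cGVHD group. It had 27 and 19 counts in liver PSGL1lo libraries, against 13 and 13 in liver PSGL1hi libraries. Lung PSGL1lo libraries held 1 and 7, lung PSGL1hi libraries 3 and 9, spleen PSGL1lo libraries 4 and 1, and spleen PSGL1hi libraries 5 and 7, while both GVHD-free libraries held 0. In liver its mean was 0.786 ± 0.0192 CPM in the PSGL1lo and 0.528 ± 0.0798 CPM in the PSGL1hi libraries (SD, n = 2 each). The lung and spleen groups of cGVHD animals overlapped one another.

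**Figure D1:**
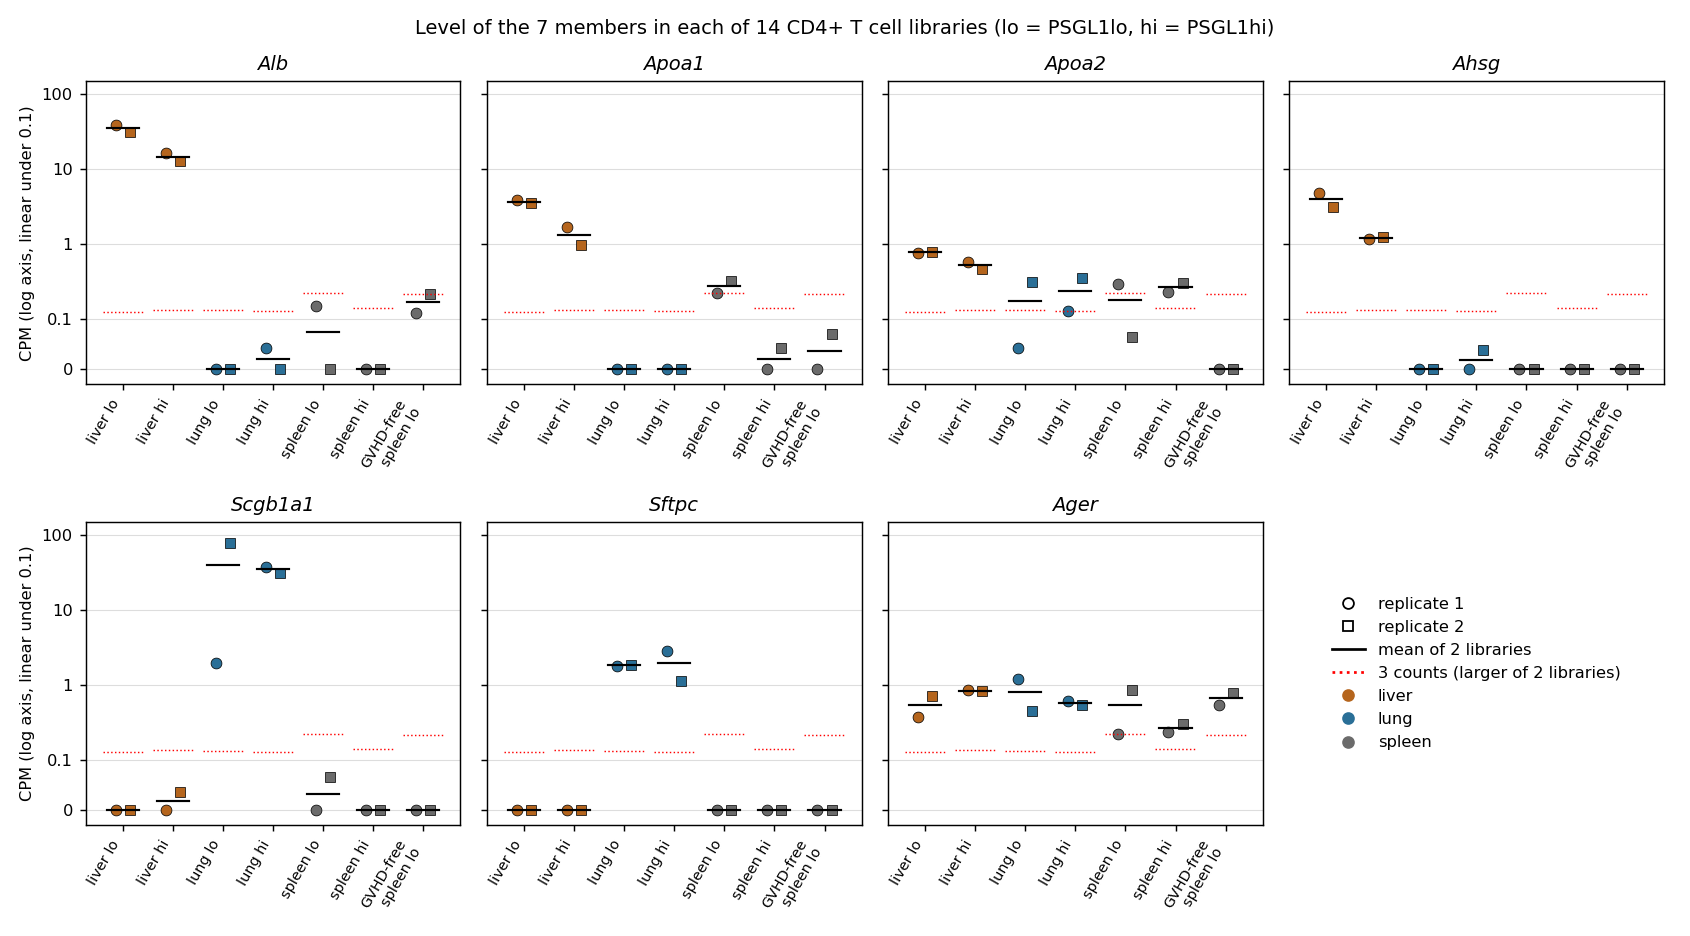
Level of each of the 7 genes (CPM on a log axis that is linear under 0.1) in the 14 libraries, with 1 point per library, black bars at the mean of 2 libraries and dotted red lines at 3 counts (the larger of a group's 2 libraries). Alb, Apoa1 and Ahsg stand highest in the 4 liver libraries, Scgb1a1 and Sftpc in the 4 lung libraries, and Ager lies between 0.223 and 1.19 CPM in all 14.

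Within cGVHD liver, 5 of the 7 genes had a fold. Of these, 3 were called higher in PSGL1lo than in PSGL1hi cells and none was called lower. The background was 8.5% of the 13780 tested genes called higher and 12.3% called lower, or 20.8% in either direction (edgeR's quasi-likelihood F test, 2-sided, adjusted p under 0.05 after Benjamini-Hochberg adjustment over all tested genes). Alb was higher by 1.27 ± 0.18 on the log2 scale (SE, adjusted p = 3.62e-05), Apoa1 by 1.48 ± 0.44 (adjusted p = 0.0226) and Ahsg by 1.71 ± 0.45 (adjusted p = 0.0107). In pooled counts the ratio of PSGL1lo to PSGL1hi was 2.48 for Alb, 2.88 for Apoa1 and 3.40 for Ahsg, with 95% exact counting intervals of 2.28 to 2.70, 2.17 to 3.85 and 2.56 to 4.58. Apoa2 gave a log2 change of 0.58 ± 0.66 and did not pass the test (adjusted p = 0.59), although both PSGL1lo libraries lay above both PSGL1hi libraries. Ager went the other way, at -0.67 ± 0.60, and did not pass the test either (adjusted p = 0.484). Both of its PSGL1lo libraries lay below both PSGL1hi libraries. In these bulk libraries, more hepatocyte material and more RNA per unit of that material cannot be told apart. The Alb call was kept without any single library, with log2 changes of 1.12 to 1.43. Apoa1 was not called without liver PSGL1hi replicate 1 (1.92, adjusted p = 0.0596), PSGL1hi replicate 2 (1.12, adjusted p = 0.263) or PSGL1lo replicate 1 (1.41, adjusted p = 0.117), nor with DESeq2 (1.49, adjusted p = 0.0845). Ahsg was not called without the same 3 libraries (1.65, 1.77 and 1.35, adjusted p = 0.109, 0.0929 and 0.153).

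**Figure D2:**
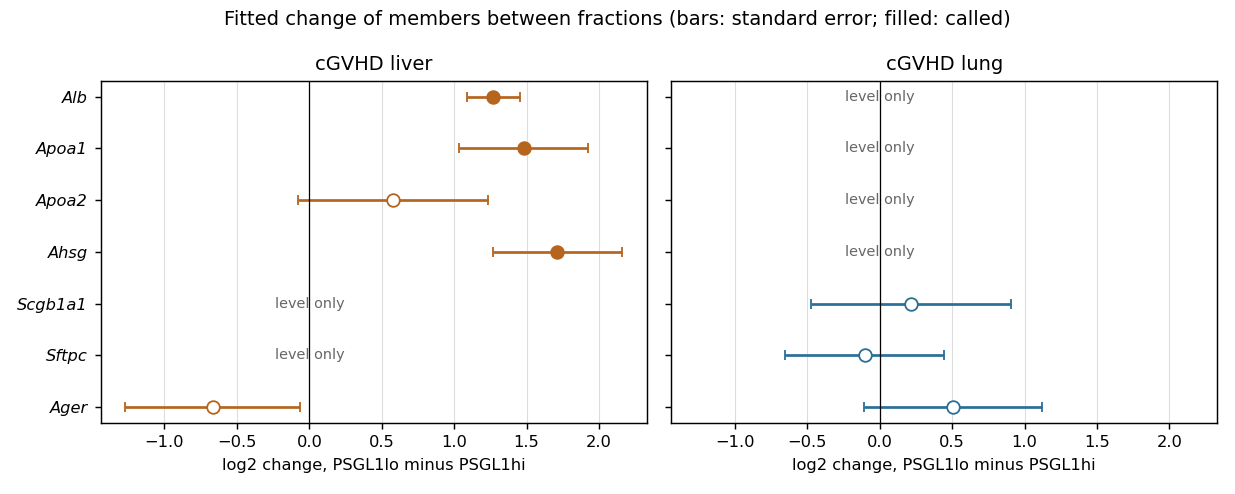
Fitted log2 change of each gene, PSGL1lo minus PSGL1hi, in cGVHD liver (left) and cGVHD lung (right), with bars for the SE and filled points for called genes. Alb, Apoa1 and Ahsg lie at 1.27 to 1.71 in liver, no gene is called in lung, and genes under 10 counts in all 4 libraries of a tissue carry no fold.

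Other hepatocyte transcripts showed the same direction in liver. Of 40 further hepatocyte genes, all in the file, 25 passed the filter, 11 were called higher in PSGL1lo than in PSGL1hi cells and 0 were called lower. Of the 25, 8 passed the filter only through the liver PSGL1lo libraries, where they were high, and all 11 called genes were among the other 17. The median log2 change of the 25 was 1.30, beside -0.02 over all tested genes, and the filter set part of that value. The largest called changes were those of Apoh, an apolipoprotein that binds phospholipid (2.09 ± 0.59), Vtn, the adhesion glycoprotein vitronectin (2.01 ± 0.50), Hpx, the heme carrier hemopexin (1.74 ± 0.45), and Kng1, kininogen (1.64 ± 0.47). Their adjusted p-values were 0.0178, 0.0068, 0.00977 and 0.021. Vtn had 189 and 89 counts in liver PSGL1lo libraries and 30 and 26 in liver PSGL1hi libraries. Both PSGL1lo libraries lay above both PSGL1hi libraries in CPM for 4 of the 7 genes (Alb, Apoa1, Apoa2 and Ahsg), beside 25.5% of all tested genes. Ager had the opposite order. Over all 40 list genes, of which 25 were tested, both PSGL1lo libraries lay above for 26 and below for 0. The share of 25.5% covers tested genes only, and none was at hand for the opposite order. These 2 counts over the list therefore have no matching background. The list is not purely hepatocytic, since Trf, C3 and Ass1 had at least 148 counts in every spleen and lung library. Trf and C3 were among the 11 called genes, which leaves 9. Of these, Hp, haptoglobin, had up to 13 counts in a spleen and 112 in a lung library, and the other 8 had at most 1 in spleen and 5 in lung. Without genes of that kind, 33 hepatocyte genes that were at or under 3 counts in all 6 spleen libraries summed to 41.4 and 49.6 CPM in liver PSGL1lo libraries, against 16.0 to 19.3 CPM in liver PSGL1hi libraries.

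**Figure D3:**
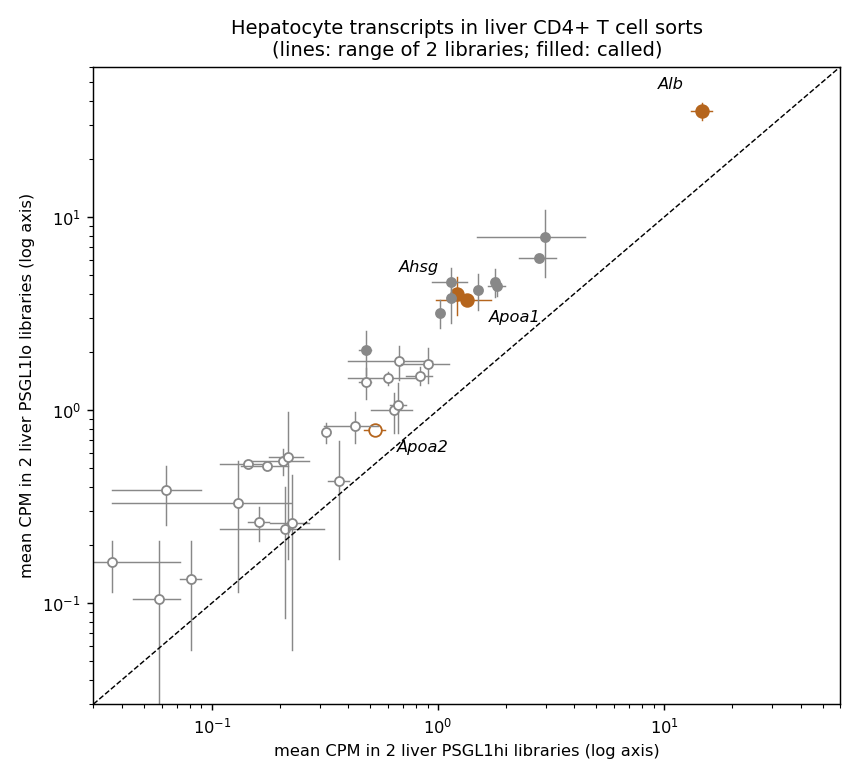
Mean CPM in 2 liver PSGL1lo libraries (vertical, log axis) against mean CPM in 2 liver PSGL1hi libraries (horizontal, log axis) for 35 hepatocyte transcripts counted at most 20 times in any spleen library and at more than 3 counts in a liver library (1 gene with a mean of 0 in PSGL1hi is not drawn), with lines for the range of the 2 libraries, filled points for the 12 called genes and orange points for Alb, Apoa1, Apoa2 and Ahsg. The means of Alb, Apoa1, Apoa2 and Ahsg lie above the dashed line of equal level. The side on which low genes fall is partly set by the count they needed to be drawn, which some reach through PSGL1lo libraries alone.

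Markers of other cells in the same liver libraries were mixed in direction. Of the macrophage list, 17 of 18 symbols were in the file, and the list summed to 30.1 and 64.6 CPM in liver PSGL1lo libraries, against 40.3 and 58.0 CPM in liver PSGL1hi libraries. Of its 17 tested genes 1 was called, Adgre1, the macrophage receptor F4/80, which was lower in PSGL1lo cells (-1.78 ± 0.47, adjusted p = 0.0097). Both genes of the CD8 T cell list were lower in PSGL1lo cells, with sums of 28.0 and 31.5 CPM in PSGL1lo against 141 and 142 CPM in PSGL1hi libraries. The 7 B cell genes summed to 7.36 and 8.34 CPM in PSGL1lo against 3.59 and 3.86 CPM in PSGL1hi libraries, with 1 of 6 tested genes called higher. The 18 genes of endothelium and stroma summed to 136 and 148 CPM in PSGL1lo against 105 and 112 CPM in PSGL1hi libraries, with 2 called higher and 2 lower of 13 tested. Pecam1 alone had up to 4583 counts in a liver library, where the list summed to at most 4741, and up to 1980 in a spleen library. The 5 genes of this list at the floor in spleen summed to 0.0421 and 0.716 CPM in PSGL1lo against 0.135 and 0.399 CPM in PSGL1hi libraries. The 5 bile duct genes at the floor in spleen summed to at most 0.143 CPM in PSGL1lo and 0.314 CPM in PSGL1hi libraries. The 9 erythroid genes in the file summed to 0.716 and 2.32 CPM in PSGL1lo against 0.797 and 1.48 CPM in PSGL1hi libraries, and 6 of the 9 were at 0 in every library. The part of other cells in the liver result was not tested.

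Between the replicates of liver PSGL1lo, the ratio of replicate 2 to replicate 1 in CPM was 0.82 for Alb, 0.909 for Apoa1, 1.04 for Apoa2 and 0.64 for Ahsg. The same ratio ran from 0.173 to 8.09, with a median of 0.736, over the 31 hepatocyte list genes that had 10 or more counts in 1 of the replicates and at least 1 in the other. It ran from 0.256 to 1.30, with a median of 0.331, over the 12 macrophage genes chosen in that way, so the ranges of the lists overlapped.

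The make-up of the 4 hepatocyte genes was compared between the 4 liver libraries, and Alb took most of the counts in each. Of their summed counts, which were 1688 and 932 in PSGL1lo and 439 and 436 in PSGL1hi libraries, Alb took 80.3% and 81.0% in PSGL1lo against 82.5% and 82.8% in PSGL1hi libraries. Apoa1 took 8.06% and 9.01% in PSGL1lo, against 8.66% and 6.19% in PSGL1hi libraries. Ahsg took 10.1% and 7.94% in PSGL1lo, against 5.92% and 8.03% in PSGL1hi libraries, and Apoa2 took 1.60% and 2.04%, against 2.96% and 2.98%. The shares of Alb and Apoa2 were lower in both PSGL1lo than in both PSGL1hi libraries, while those of Apoa1 and Ahsg overlapped between fractions. Differences in share between the fractions were not tested. The 95% exact (Clopper-Pearson) intervals of Alb ran across 78.3% to 86.2% over the 4 libraries and overlapped for every pair. Ahsg in PSGL1lo replicate 1 (8.68% to 11.6%) and in PSGL1hi replicate 1 (3.90% to 8.56%) did not overlap. The shares are of read counts and are not per length, so they compare libraries and not genes.

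**Figure D4:**
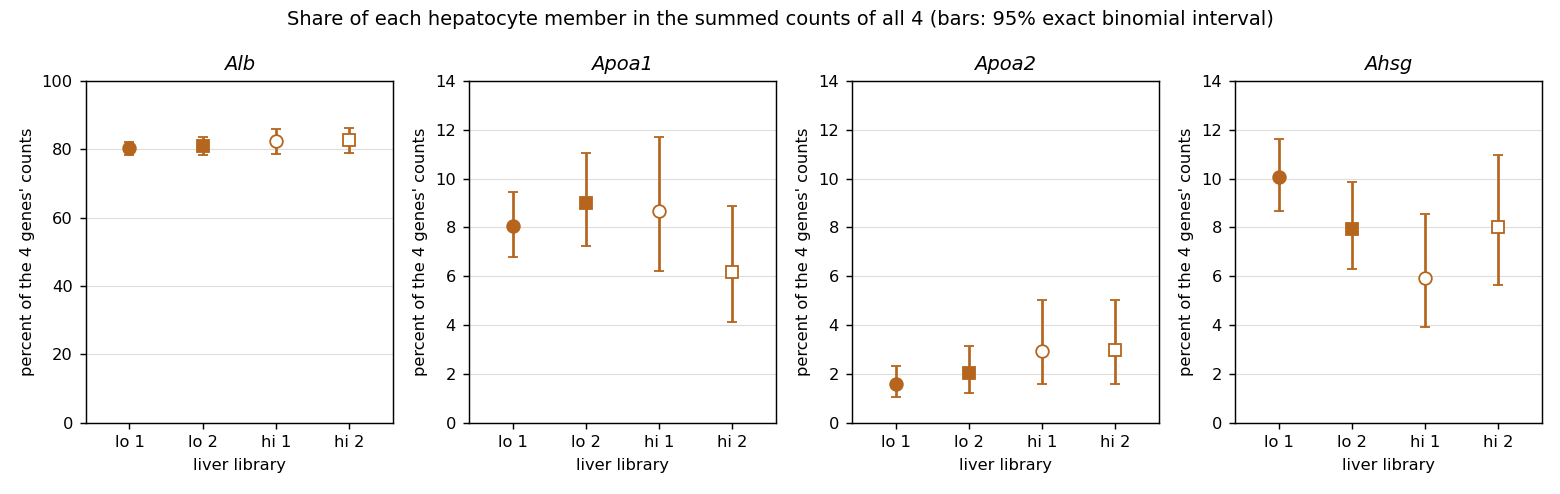
Share of Alb, Apoa1, Apoa2 and Ahsg in their own summed counts in each liver library (percent, with the axis to 100 for Alb and to 14 for the others), with filled points for PSGL1lo, open points for PSGL1hi and bars for the 95% exact binomial interval. Alb stays between 80.3% and 82.8%, and the intervals of the other shares overlap between libraries except for Ahsg between the first replicates.

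Against spleen, where the design asks how T cells in a target tissue differ from those in a lymphoid organ, 4 of 7 genes were called higher in liver PSGL1lo cells and none lower, beside 28.7% of tested genes called higher and 29% called lower. In pooled counts Alb was 517-fold higher in liver than in spleen PSGL1lo cells (counting interval 143 to 4268, 2 counts in spleen, adjusted p = 6.30e-13). Apoa1 was 13.5-fold higher (6.71 to 31.6, adjusted p = 2.40e-05) and Ahsg, with 0 counts in spleen, at least 39.8-fold higher (adjusted p = 1.35e-06), with 3 counts over the group as floor. Apoa2 was 4.50-fold higher (1.80 to 14.5, adjusted p = 0.0414), a call that was lost without spleen PSGL1lo replicate 2 (log2 change 1.41, adjusted p = 0.302), without either liver PSGL1lo library (adjusted p = 0.0817 and 0.07), with DESeq2 (0.106), without the filter (0.0732) and with the replicate number as a block (0.0509).

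In PSGL1hi cells 4 of 7 genes were also called higher in liver than in spleen, with none lower, beside 28.5% and 29.4% of tested genes. Alb was at least 215-fold higher and Ahsg at least 18.2-fold higher, since both had 0 counts in spleen PSGL1hi libraries (adjusted p = 2.09e-12 and 2.27e-05). Apoa1 was 58.0-fold higher (counting interval 10.1 to 2327, 1 count in spleen, adjusted p = 2.31e-05). Apoa2 had a ratio of 1.93 (0.942 to 4.21) and did not pass the test (adjusted p = 0.303). The fourth was Ager, described with the lung genes. These counts do not support a difference of the genes as a set, since 4 of the 7 were tested only because of their liver counts. The same holds for 20 of the 25 tested hepatocyte genes of the wider list. Of the 25, 21 were called higher and 2 lower in liver than in spleen PSGL1lo cells, and 20 higher and 2 lower in PSGL1hi cells. The most changed were the fibrinogen chain genes Fgb and Fga, which had 0 counts in all cGVHD spleen libraries.

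Lung epithelial transcripts were found in lung sorts, and the club cell gene varied most. Scgb1a1 had 47 and 1761 counts in lung PSGL1lo libraries, against 876 and 802 in lung PSGL1hi libraries. It had 0 counts in 8 of the 10 liver and spleen libraries and 1 count in each of the other two. Scgb1a1 averaged 40.3 ± 54.2 CPM in lung PSGL1lo and 34.6 ± 4.56 CPM in lung PSGL1hi cells. The PSGL1lo libraries lay on either side of both PSGL1hi libraries, so the fractions overlapped.

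Sftpc, the alveolar type 2 gene, had 42 and 42 counts in lung PSGL1lo libraries, against 65 and 29 in lung PSGL1hi libraries. All 10 liver and spleen libraries held 0 counts. In lung PSGL1lo cells its mean was 1.83 ± 0.067 CPM, against 1.97 ± 1.18 CPM in lung PSGL1hi cells (SD, n = 2 each), and the fractions overlapped. Floors in the 4 lung libraries were 0.118 to 0.134 CPM, so Sftpc lay above them in each.

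Ager, the alveolar type 1 gene, did not follow the lung. It had 28 and 10 counts in lung PSGL1lo, 14 and 14 in lung PSGL1hi, 13 and 17 in liver PSGL1lo and 19 and 23 in liver PSGL1hi libraries. Spleen held 3 and 13 counts in cGVHD PSGL1lo, 5 and 7 in cGVHD PSGL1hi and 9 and 11 in GVHD-free PSGL1lo libraries. Group means ran from 0.268 ± 0.0485 CPM in spleen PSGL1hi to 0.844 ± 0.0141 CPM in liver PSGL1hi cells, and each group overlapped its neighbour in that order.

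Within cGVHD lung, 3 of the 7 genes had a fold, and edgeR called 0 of them between PSGL1lo and PSGL1hi cells. The share of all tested genes called in either direction was 33%. The log2 change was 0.22 ± 0.69 for Scgb1a1 (adjusted p = 0.85), -0.10 ± 0.55 for Sftpc (adjusted p = 0.912) and 0.51 ± 0.61 for Ager (adjusted p = 0.57). The Scgb1a1 value was set by which PSGL1lo library was present. Without PSGL1lo replicate 1 it was called higher in PSGL1lo cells (1.18, adjusted p = 4.02e-05), and without PSGL1lo replicate 2 it was called lower (-4.07, adjusted p = 1.25e-08). Alb, Apoa1 and Ahsg had at most 1 count per lung library and Apoa2 at most 9, so they carry no fold there. Among the 3 genes with a fold, edgeR also counted 0 at an unadjusted p under 0.05, and DESeq2 and limma voom called 0.

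Of 30 further lung epithelial genes, all in the file, 21 passed the filter, of which 1 was called higher and 2 lower in lung PSGL1lo than in PSGL1hi cells, with a median log2 change of 0.20, beside -0.03 over all tested genes. The called genes were Rtkn2 (-2.20 ± 0.53, adjusted p = 0.00272), Cdh1, E-cadherin (-1.84 ± 0.10, adjusted p = 7.26e-12), and Abca3, the lipid transporter of lamellar bodies (0.66 ± 0.08, adjusted p = 1.27e-06). None of the 3 was confined to the lung libraries. Rtkn2 had up to 98 counts in a spleen library and 34 in a liver library, against at most 38 in a lung library. Cdh1 had 515 and 370 counts in liver PSGL1lo and 1213 and 1620 in liver PSGL1hi libraries, and Abca3 had 2792 and 1998 in liver PSGL1lo and 1128 and 1556 in liver PSGL1hi libraries. Cdh1 was counted most in lung, with up to 4919 in a library, against at most 256 in spleen. Abca3 had up to 2070 in a lung and 1674 in a spleen library. The 18 lung epithelial genes at or under 3 counts in all spleen libraries summed to 14.1 and 40.4 CPM in lung PSGL1lo, against 19.0 and 24.4 CPM in lung PSGL1hi libraries. In the same libraries the macrophage list summed to 1212 and 1795 CPM in lung PSGL1lo, against 1081 and 1404 CPM in lung PSGL1hi libraries. The part of macrophage RNA in the lung values was not tested.

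Between the lung PSGL1lo libraries, the widest gaps were those of club cell genes. The ratio of replicate 2 to replicate 1 was 39.5 for Scgb1a1 (counting interval 29.5 to 53.9), which ranked 2 of 13780 tested genes by the size of that change. The first and the third, singled out after their values were seen, were Cyp2f2, a cytochrome of club cells, with 221 counts in replicate 2 and 2 in replicate 1 (ratio 116, interval 31.8 to 967), and Scgb3a2, another secretoglobin, with 38 and 2 counts (interval of the ratio 5.17 to 171). Sftpc had a ratio of 1.05 (0.67 to 1.66), and Pdpn, a type 1 cell gene, had 1.23 (1.02 to 1.48). Genes of other surfactant proteins lay between, with ratios of 7.52 for Sftpb, 4.17 for Sftpa1 and 2.30 for Sftpd. The macrophage list summed to 1212 CPM in replicate 1 and 1795 CPM in replicate 2. Of its genes, Lyz2 had a ratio of 1.52 and Chil3 of 1.43. Both ratios were smaller than those of the club cell genes and larger than those of Sftpc and Pdpn. In lung PSGL1hi cells the ratio was 0.83 for Scgb1a1, 0.842 for Cyp2f2, 0.333 for Scgb3a2 and 0.404 for Sftpc.

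**Figure D5:**
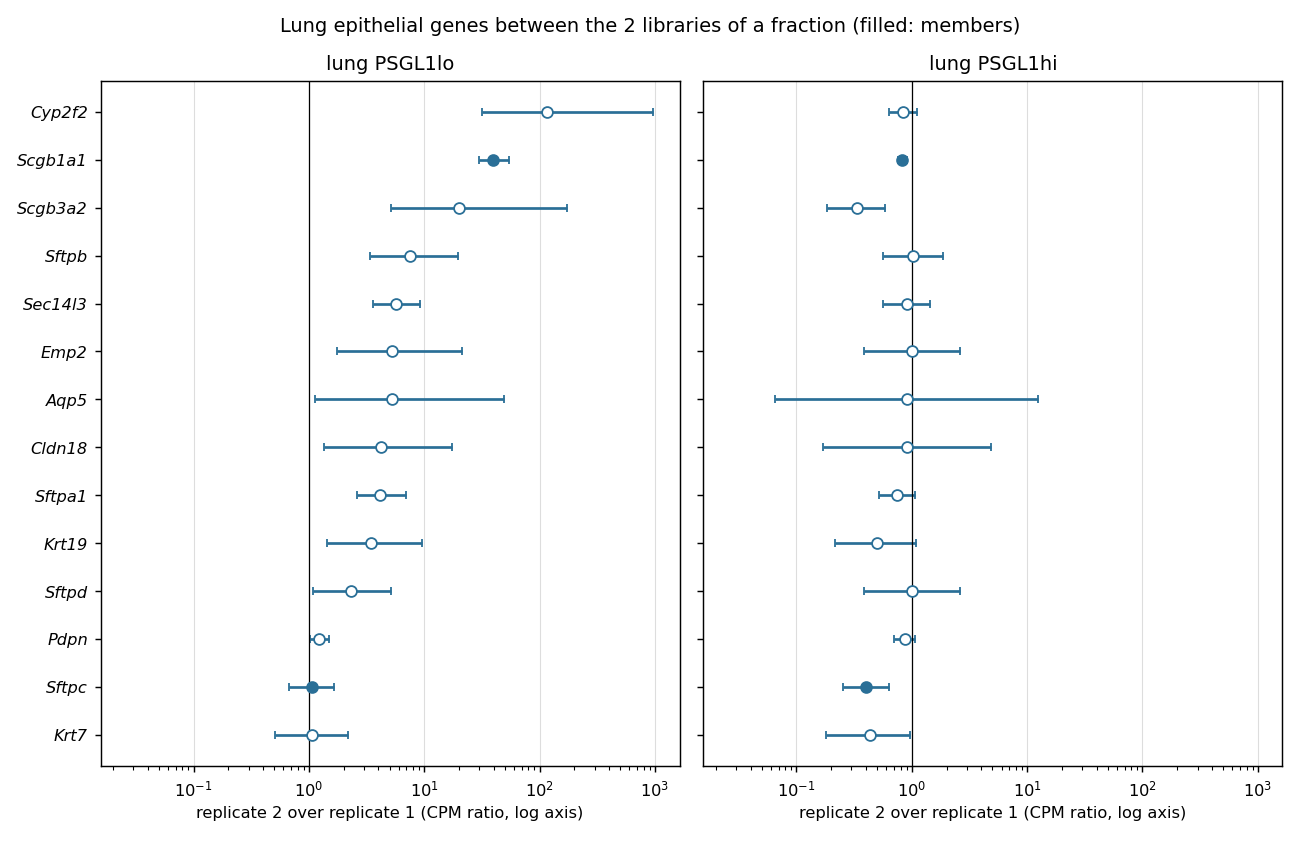
Ratio of replicate 2 to replicate 1 in CPM (log axis) for 14 lung epithelial genes that were at or under 3 counts in all spleen libraries and had 10 or more in a lung library (1 further gene, at 0 in a PSGL1lo replicate, is not drawn), in lung PSGL1lo (left) and lung PSGL1hi cells (right), with bars for the 95% exact counting interval and filled points for Scgb1a1 and Sftpc. In PSGL1lo cells Cyp2f2 and Scgb1a1 stand at 116 and 39.5 and Scgb3a2 comes next, while Sftpc and Krt7 stand at 1.05, and in PSGL1hi cells the ratios lie between 0.333 and 1.02.

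The proportion of Sftpc to Scgb1a1 counts differed between lung libraries. It covers a single gene pair, and the other surfactant genes had larger ratios between the PSGL1lo replicates than Sftpc. Sftpc made up 47.2% and 2.33% of the summed Scgb1a1 and Sftpc counts in lung PSGL1lo libraries, against 6.91% and 3.49% in lung PSGL1hi libraries. The exact intervals were 36.5% to 58.1% and 1.68% to 3.14% in PSGL1lo, against 5.37% to 8.72% and 2.35% to 4.97% in PSGL1hi libraries. The interval of PSGL1lo replicate 1 met none of the others.

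Against spleen, 2 of 7 genes were called higher and none lower in lung cells of either fraction, beside 29.6% of tested genes called higher and 30.4% lower in PSGL1lo cells and 30.7% higher and 31.1% lower in PSGL1hi cells. Scgb1a1 was 1129.5-fold higher in lung than in spleen PSGL1lo cells (counting interval 202 to 44638, 1 count in spleen, adjusted p = 9.93e-05) and at least 512-fold higher in PSGL1hi cells (adjusted p = 4.18e-05). The PSGL1lo value rested on lung replicate 2 and on the 1 spleen count: the fitted log2 change was 9.96, against 5.63 without lung PSGL1lo replicate 2, 10.93 without lung PSGL1lo replicate 1 and 12.81 without spleen PSGL1lo replicate 2, and the counting interval does not cover that spread between replicates. Sftpc was at least 17.5-fold higher in PSGL1lo and at least 28.7-fold higher in PSGL1hi cells (adjusted p = 0.000119 and 2.51e-05). DESeq2 did not call Sftpc in either fraction (adjusted p = 0.274 and 0.22), and limma voom did not call Scgb1a1 (adjusted p = 0.274 and 0.136). Ager gave 0.57 ± 0.66 in PSGL1lo and 1.08 ± 0.71 in PSGL1hi cells and was not called (adjusted p = 0.472 and 0.195). In liver PSGL1hi cells it was called higher than in spleen, by 1.63 ± 0.68 (adjusted p = 0.0469). That call was lost without any 1 of the 4 libraries compared (1.45 to 1.80, adjusted p = 0.13 to 0.2), with DESeq2 (0.0791), with upper-quartile scaling (0.0546) and with the replicate number as a block (0.0561). Of the 21 tested genes of the wider lung list, 10 passed the filter only through the lung libraries, as Scgb1a1 and Sftpc did, so the counts of calls towards lung are partly set by the filter. Of the 21, 14 were called higher and 2 lower in PSGL1lo cells, and 13 higher and 3 lower in PSGL1hi cells. The most changed were Cyp2f2, Sec14l3, Sftpa1 and Sftpb in PSGL1lo and Pdpn, Cyp2f2, Sftpa1 and Sec14l3 in PSGL1hi cells, and all of them had a mean of 0 CPM in the spleen group compared.

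The comparison of lung with liver lies within 1 library series. In PSGL1lo cells 2 genes were called higher and 4 lower in lung, beside 19.6% and 20.4% of tested genes, and in PSGL1hi cells 2 were higher and 3 lower, beside 20.1% and 18.3%. Each called gene had passed the filter only through the tissue in which it was higher. The counts of calls therefore do not support a difference of the genes as a set. In lung PSGL1lo cells Alb was at least 551-fold, Apoa1 at least 57.5-fold and Ahsg at least 63.7-fold lower than in liver, and Scgb1a1 was at least 769-fold and Sftpc at least 35.7-fold higher. In lung PSGL1hi cells the ratio to liver was 0.00142 for Alb (counting interval 3.58e-05 to 0.00792, 1 count in lung), and 0.0168 for Ahsg (0.000418 to 0.0971, 1 count in lung). Apoa1 was at least 21.2-fold lower in lung PSGL1hi cells, Scgb1a1 was 1719-fold higher (308 to 67927, 1 count in liver) and Sftpc at least 32.1-fold higher. The adjusted p-values of these 10 calls ranged from 3.59e-13 to 9.30e-05. Sftpc was not called with DESeq2 (adjusted p = 0.256 in PSGL1lo and 0.274 in PSGL1hi), nor Scgb1a1 with limma voom (0.225 and 0.194). The Scgb1a1 bound in PSGL1lo rested on lung replicate 2, without which the fitted log2 change was 8.47, against 12.78 with all libraries. In PSGL1hi it rested on the 1 liver count, and the fitted change was 12.54 without liver PSGL1hi replicate 2, against 10.39 with all libraries. These fitted values depend on the prior count and are no measure of size. Apoa2 had a ratio of 0.222 in PSGL1lo cells (0.0905 to 0.475, adjusted p = 0.0348) and 0.473 in PSGL1hi cells (0.217 to 0.971, adjusted p = 0.291). The Apoa2 call was lost without lung PSGL1lo replicate 1 (log2 change -1.32, adjusted p = 0.297), without either liver PSGL1lo library (adjusted p = 0.0792 and 0.061), with DESeq2 (0.107), without the filter (0.063) and with only the compared groups in the fit (0.0761). Ager differed by 0.63 in PSGL1lo and -0.55 in PSGL1hi cells and was not called (adjusted p = 0.439 and 0.518).

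In spleen the disease and fraction comparisons rest on counts near the floor. Between cGVHD and GVHD-free PSGL1lo cells, Alb had 2 and 0 counts in cGVHD, against 2 and 3 in GVHD-free libraries. Apoa1 had 3 and 5 counts in cGVHD, against 0 and 1 in GVHD-free libraries, and Apoa2 had 4 and 1, against 0 and 0. Ahsg and Sftpc had 0 counts in all 6 spleen libraries and Scgb1a1 had 1 count over the 6, so these are levels only. Ager was the only gene with a fold, at -0.27 ± 0.71 between cGVHD and GVHD-free cells (adjusted p = 0.833) and 1.01 ± 0.77 between PSGL1lo and PSGL1hi cells of cGVHD spleen (adjusted p = 0.338). Only Ager could be called in either comparison, since the other 6 of the 7 genes were given as levels only. Neither edgeR, also at an unadjusted p under 0.05, nor DESeq2 or limma voom called Ager in either comparison. Among all tested genes edgeR called 27.5% and 32.5%.

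Whether the difference between fractions itself differed between tissues could be tested for Ager alone, since the other genes had no fold in 1 of the tissues. The PSGL1lo effect on Ager in liver minus that in spleen was -1.68 ± 0.98 (adjusted p = 0.329), in lung minus spleen -0.51 ± 0.97 (adjusted p = 0.787), and in liver minus lung -1.17 ± 0.86 (adjusted p = 0.531). None was called by edgeR, DESeq2 or limma voom, beside 6.84%, 16.6% and 5.98% of tested genes.

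The genes closest in pattern were taken from all tested genes by Pearson r of log2 CPM over the 14 libraries. These values are descriptions, because the points fall into liver, lung and spleen clusters and share a tissue's libraries. Closest to Alb were Fga (0.989) and Fgb (0.986), and closest to Ahsg were Fgg (0.998), Kng1 (0.998) and Ambp (0.998), all of which encode plasma proteins. For Apoa1 they were Rgs3 (0.964), Gm9776 (0.958) and Gc (0.948), the last a vitamin D carrier. Apoa2 was closest to Hdhd5 (0.91) and Copa (0.906). Scgb1a1 was closest to Sftpb (0.996) and Car4 (0.995), and Sftpc to Inmt (0.999) and Mgp (0.989), whereas Ager reached only 0.814, with 1300002E11Rik.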

How the data were processed

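The deposited file holds raw read counts as whole numbers for each gene. Per the submitters' processing notes, the authors used TopHat2 2.0.8, HTSeq and mm9. The sources used here name no gene annotation, strand setting or read filter. No mm9 annotation was used here, and GRCm38 tables served only for promoters and neighbouring genes. Of the 25017 entries, 26 carry date-like names and were kept as they stand.

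The analysis used edgeR 4.0.16 under R 4.3.3. filterByExpr kept 13780 genes, TMM set the library sizes, and a quasi-likelihood model with 1 mean per group took in all 14 libraries, with 7 residual degrees of freedom and a biological coefficient of variation of 7.35%. A gene was called at an adjusted p under 0.05. A gene under 10 counts in every library of both groups was given as levels only. Ratios set the pooled counts of a group over its pooled scaled library sizes, with 95% exact binomial intervals, and a group at 0 was set to 3 counts over the group. The procedure was tested on simulated data with the same spread for every gene and, apart from planted changes, the same mean in every group. That setting does not cover genes at 0 in most groups or wide gaps between replicates, so it is no check on calls of that kind. Alternatives were DESeq2 1.42.0, voom in limma 3.58.1, other scalings, no filter, fewer groups in the fit, a replicate block and leaving out each library.

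No library was a copy of its partner: the chi-square per degree of freedom between replicates was 3.04 to 19.6. The 7 genes and the lists were chosen with earlier results of these data known. From the hepatocyte, lung and other marker lists at most the 4 called genes with the largest change were named, and for each of the 7 genes the closest of the 5 most correlated genes. Other genes named beside these, such as Cyp2f2, Scgb3a2, Trf and Pdpn, were chosen after their values were seen.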

Additional observations from a re-analysis of the deposited data

How the results depend on the processing

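Counts of 29 to 65 (Sftpc) and 10 to 28 (Ager) in lung libraries limit what could be resolved there, and genes under 10 counts were given no fold. The number of the 7 genes called in liver PSGL1lo against PSGL1hi cells was 3, and 1 to 3 without single libraries. In lung it was 0, and 0 to 1 without single libraries. The 1 was Scgb1a1, at 1.18 without lung PSGL1lo replicate 1 and at -4.07 without replicate 2. Lung against spleen called 2 genes in each fraction, and 1 in each with DESeq2 and with limma voom. The other counts of called members stayed within 1.5 times under every alternative run. Over all genes, 2866 were called between liver fractions, and 1552 to 3696 without single libraries. The difference of fraction effects had 943 calls for liver minus spleen (330 to 2499 without single libraries, 591 with only the compared groups in the fit), 2282 for lung minus spleen (1517 to 2047) and 824 for liver minus lung (475 to 1320). Without scaling beyond total counts the median of all genes shifted by 0.14 (lung fractions), -0.15 (lung against spleen, PSGL1hi) and -0.13 (lung against liver, PSGL1hi). Deviations of same-numbered replicates correlated at -0.06 to 0.08, with 0.07 between the liver fractions and 0.08 between the lung fractions. Each value rests on a single difference between replicates per group, so it cannot show whether the numbers are a pairing. The sample names of liver and lung carry A for replicate 1 and B for replicate 2 in both fractions. The digit after that letter goes with opposite fractions in liver and in lung. What it stands for is not stated in the sources used here, and the fractions were taken from the sample titles. With the replicate block, 3 members were called in liver, 0 in lung, 3 in liver against spleen in each fraction (4 without it), and no other member count changed. Where a library was left out, its partner was assumed to vary like the other groups. The cause of these shifts was not tested.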
